A study of Mus musculus with 18 samples.

Results

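DNA replication and S phase genes, the genes whose products license origins, unwind and copy DNA, and supply its building blocks, were read as a set of 43 genes out of 49845 gene rows listed in each library. The members were taken by gene symbol from a list. All 43 were found, and all 43 passed the filter on low values (at least 1 TPM, transcripts scaled to a fixed sum per library, in at least 3 of the 18 libraries), as did 16718 genes in all. The cells were IMCD3, a mouse kidney line that derives from the collecting duct of the inner medulla, of strain background Tg(SV40E)bri/7, at passage 10 to 15, grown in microslide chambers. The 6 groups, of 3 RNA sequencing libraries each, were Dync2h1 knockout under flow, Dync2h1 knockout static, Ift140 knockout under flow, Ift140 knockout static, wild type (WT) under flow and WT static. Flow was a shear of about 0.7 dyne/cm2 for 3 h at 37 C, and static chambers had none. Dync2h1 encodes the heavy chain of the dynein-2 motor and Ift140 a subunit of the IFT-A complex, which both carry cargo back down the primary cilium. The labels name neither the number of clones behind a knockout line nor separate cultures, so the p-values below measure the spread between these libraries, and a clone's own differences cannot be told apart from those of its deletion.

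Before S phase, the origin recognition complex, Cdc6 and Cdt1 load the ring-shaped MCM2-7 helicase onto DNA, and geminin (Gmnn) blocks a further loading. Cdc45 and the GINS proteins then turn the ring into an active helicase, primase and DNA polymerases copy the strands, and the clamp Pcna, placed by the RFC loader, holds the polymerases on DNA. Many of these genes are transcribed at the G1/S border by E2F factors, which the RB family of proteins holds back. The SV40 early region carried by the strain encodes large T antigen, a protein that binds the RB family, which limits these cells as a model of E2F control. In these bulk libraries fewer cells in S phase and less RNA per cell cannot be told apart.

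The library labelled Ift140 knockout flow replicate 3 goes against its label in the level of Ift140 itself. Ift140 was at 7.65, 8.53 and 15.4 TPM in the 3 Ift140 knockout flow libraries. In WT flow libraries it was at 16.5, 15.1 and 18.5 TPM, so replicate 3 lay at the WT level. It also had 16076 genes at 1 TPM or more, against 14705 to 15397 in the other 17 libraries, the lowest summed level of the members (4816 TPM) and the lowest value of all 18 libraries for 14 of the 43 members. Calls that rest on the Ift140 knockout flow group are given with and without this library. Some other values of that group, such as changes that did not pass, are given only with it. Every comparison uses an estimate of the spread from all 18 libraries, so replicate 3 also enters p-values of comparisons without its group. Those are not given without replicate 3 alone, but fits with only the groups compared leave it out. Replicate 3 had Dync2h1 at 42.3 TPM, against 22.9 and 28.5 TPM in replicates 1 and 2 of its group. Its rank correlation with the mean of the other libraries of its group (0.966) was the lowest of all 18. In the marker sums given below, no library of the Ift140 knockout flow group lay within the range of WT flow libraries. The proximal tubule sum was 69.8 to 120.5 TPM against 371 to 452 TPM. The collecting duct and epithelial sum was 3671 to 4306 TPM against 3505 to 3608 TPM. The cause of the Ift140 and Dync2h1 levels in replicate 3 was not tested. Ift140 was at 6.26, 6.44 and 7.45 TPM in static Ift140 knockout libraries and 16.5, 19.5 and 18.7 TPM in static WT libraries, and Dync2h1 was at 7.07 to 15.4 TPM in the 6 Dync2h1 knockout libraries and 28.1 to 45.4 TPM in the 6 WT libraries. Of 12 collecting duct and epithelial markers 9 averaged 1 TPM or more, led by Krt8, against 0 of 4 endothelial, 1 of 6 fibroblast and 1 of 5 leukocyte markers, with Cd3e at 0. Aqp2, Aqp3 and Gata3 of the first list did not, with highest deposited values of 0.07, 0.63 and 0.88 TPM. Of 5 proximal tubule markers 3 averaged 1 TPM or more, led by Cubn, while Slc34a1 and Slc22a6 were at 0. The summed level of these 5 moved with genotype. It was 7.01 to 9.26 TPM under flow and 9.52 to 12.5 TPM static in Dync2h1 knockout libraries. In Ift140 knockout libraries it was 69.8 to 120.5 TPM under flow and 80.8 to 89.3 TPM static, and in WT libraries 371 to 452 TPM under flow and 433 to 436 TPM static. The summed level of the 12 collecting duct and epithelial markers moved with genotype and flow. It was 4205 to 4389 TPM under flow and 3141 to 3254 TPM static in Dync2h1 knockout libraries. In Ift140 knockout libraries it was 3671 to 4306 TPM under flow and 3165 to 3457 TPM static, and in WT libraries 3505 to 3608 TPM under flow and 2451 to 2566 TPM static. The part of these markers in the results was not tested.

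Promoter sequences are shown for the 3 members with the smallest p over all comparisons, and for Bub1b, the mitosis gene with the smallest p, because the flow results below set replication genes beside mitosis genes. Each is the 150 bases just before the RefSeq transcription start on the gene's own strand (build GRCm38.p6), with E2F, CCAAT and CHR words in capitals. Mcm6 encodes a helicase subunit, and the stretch lies at chr1:128359706-128359855, on the minus strand. Chaf1a encodes the large subunit of a histone chaperone, at chr17:56040266-56040415 on the plus strand. Mcm3 encodes another helicase subunit, at chr1:20820313-20820462 on the minus strand. Bub1b encodes a checkpoint kinase of the spindle, at chr2:118598061-118598210 on the plus strand.
Mcm6: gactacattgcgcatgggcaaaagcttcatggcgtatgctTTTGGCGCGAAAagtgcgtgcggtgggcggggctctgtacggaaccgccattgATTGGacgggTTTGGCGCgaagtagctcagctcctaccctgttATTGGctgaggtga
Chaf1a: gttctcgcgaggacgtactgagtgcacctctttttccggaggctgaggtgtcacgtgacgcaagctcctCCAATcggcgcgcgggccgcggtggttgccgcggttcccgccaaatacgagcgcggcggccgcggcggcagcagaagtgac
Mcm3: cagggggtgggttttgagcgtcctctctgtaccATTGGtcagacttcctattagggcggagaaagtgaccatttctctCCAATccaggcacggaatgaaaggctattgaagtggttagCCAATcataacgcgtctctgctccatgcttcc
Bub1b: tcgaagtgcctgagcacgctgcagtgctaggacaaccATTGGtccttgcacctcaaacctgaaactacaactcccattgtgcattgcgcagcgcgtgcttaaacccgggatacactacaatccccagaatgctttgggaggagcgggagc
The words searched on both strands were TTTCCCGC, TTTGGCGC, TTTCGCGC and TTTGCCGC for E2F, CCAAT for the NF-Y factor, and TTTGAA and TTCGAA for the cell cycle genes homology region (CHR) of late cell cycle promoters. The Mcm6 stretch held 3 E2F words, of which 2 overlap, and 2 CCAAT words. The Chaf1a stretch held 1 CCAAT word, the Mcm3 stretch 3 and the Bub1b stretch 1, with no E2F or CHR word in these 3 stretches. The longer RefSeq windows did hold such words outside the printed bases: Mcm3 had 2 E2F words after the start, and Bub1b had 2 CHR words, 1 upstream and 1 after the start. Over the whole RefSeq window (250 bases before to 50 after the start, any of a gene's starts), 35 members had an entry and 14 of them (40%) held an E2F word, against 2.6% of all 27025 genes and 1 of 26 mitosis genes. CCAAT was in 22 of the 35 members (62.9%), against 41.1% of all genes and 21 of 26 mitosis genes. CHR was in 7 of the 35 members (20%), against 21.7% of all genes and 21 of 26 mitosis genes. A match is a description of letters in this window and not evidence of binding.

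The knockout lines carried lower levels of many members, most broadly among helicase, polymerase, primase and clamp loader genes, while Pcna, Mcm10, Chaf1a and Uhrf1 were higher in one line or the other. Levels are TPM divided by a scaling factor per library, and a member passed where limma on log2(TPM + 1) gave a Benjamini-Hochberg adjusted p under 0.05 over all 16718 genes. In static Dync2h1 knockout cells 2 members were higher and 17 lower than in static WT cells, 44.2% of the members against 27.6% of all genes that passed in either direction. The lower calls alone were 39.5% of the members and 14.1% of all genes, higher calls 4.65% and 13.5%, and the median log2 fold change was -0.15 over the members and -0.01 over all genes. Without scaling of the libraries the split was 0 higher and 16 lower. In static Ift140 knockout cells 2 members were higher and 14 lower, 37.2% against 18.1% of all genes. Lower calls were 32.6% of the members and 9.08% of all genes, higher calls 4.65% and 8.97%, and the median was -0.22 over the members and 0.00 over all genes. The proximal tubule marker sum given above was lower in both lines in these comparisons. In each line 22 members lay wholly below the static WT libraries, where 24.3% (Dync2h1) and 19% (Ift140) of all genes did, and 4 and 3 members lay wholly above, where 23.2% and 19.4% of all genes did.

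Under flow 5 members were higher and 14 lower in Dync2h1 knockout cells than in WT cells, 44.2% against 30.1% of all genes, with a median of -0.15 over the members and 0.01 over all genes. Without scaling that split was 1 higher and 20 lower, and the median of all genes moved to -0.10, so the higher calls in this comparison are relative to the scaling, except that of Pcna. Higher and lower calls were 16.1% and 14% of all genes. Wholly above the WT flow libraries lay 9 members and wholly below 21, where 25.1% and 21.6% of all genes did. In Ift140 knockout cells under flow 1 member was higher and 10 lower than in WT, 25.6% against 15.3% of all genes, where higher and lower calls were 7.73% and 7.52% of all genes. The median was -0.14 over the members and 0.01 over all genes. Wholly above WT lay 4 members and wholly below 16, where 14.4% and 13.8% of all genes did. These were 6 and 17 without replicate 3 of the Ift140 knockout flow group, where 22.1% and 19.7% of all genes did. The count of 11 depended on single libraries: it was 5 with the library labelled Ift140 knockout flow replicate 3 left out (1 higher, 4 lower, with Gins2, Prim1, Rfc3, Rfc5, Tk1 and Chaf1b lost), where 14.3% of all genes passed. It was 7 without replicate 1 and 17 without replicate 2 of that group (13.3% and 18.4% of all genes), and 5, 7 and 6 without WT flow replicates 1, 2 and 3 (10.8%, 11.4% and 11%). With only the 2 groups in the fit it was 1, and 4.45% of all genes passed. Of the 14 members lower in static Ift140 knockout cells and the 10 lower under flow, which come from different libraries, 8 were shared (57.1% and 80%): Mcm6, Gins2, Pola1, Prim1, Pold1, Rfc3, Rfc5 and Tk1. Without replicate 3 of the Ift140 knockout flow group 4 were lower under flow, of which 3 were shared (Mcm6, Pola1 and Pold1). Of the 17 and 14 lower in Dync2h1 knockout cells 12 were shared (70.6% and 85.7%): Mcm2, Mcm3, Mcm6, Mcm7, Pola2, Prim1, Prim2, Pold1, Rfc1, Rfc2, Rfc5 and Tyms. The same knockout and WT lines, and the same estimate of the spread, stand behind the calls of both conditions. The shared part over all genes was not counted, so these percentages cannot be read as particular to the members.

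**Figure D1:**
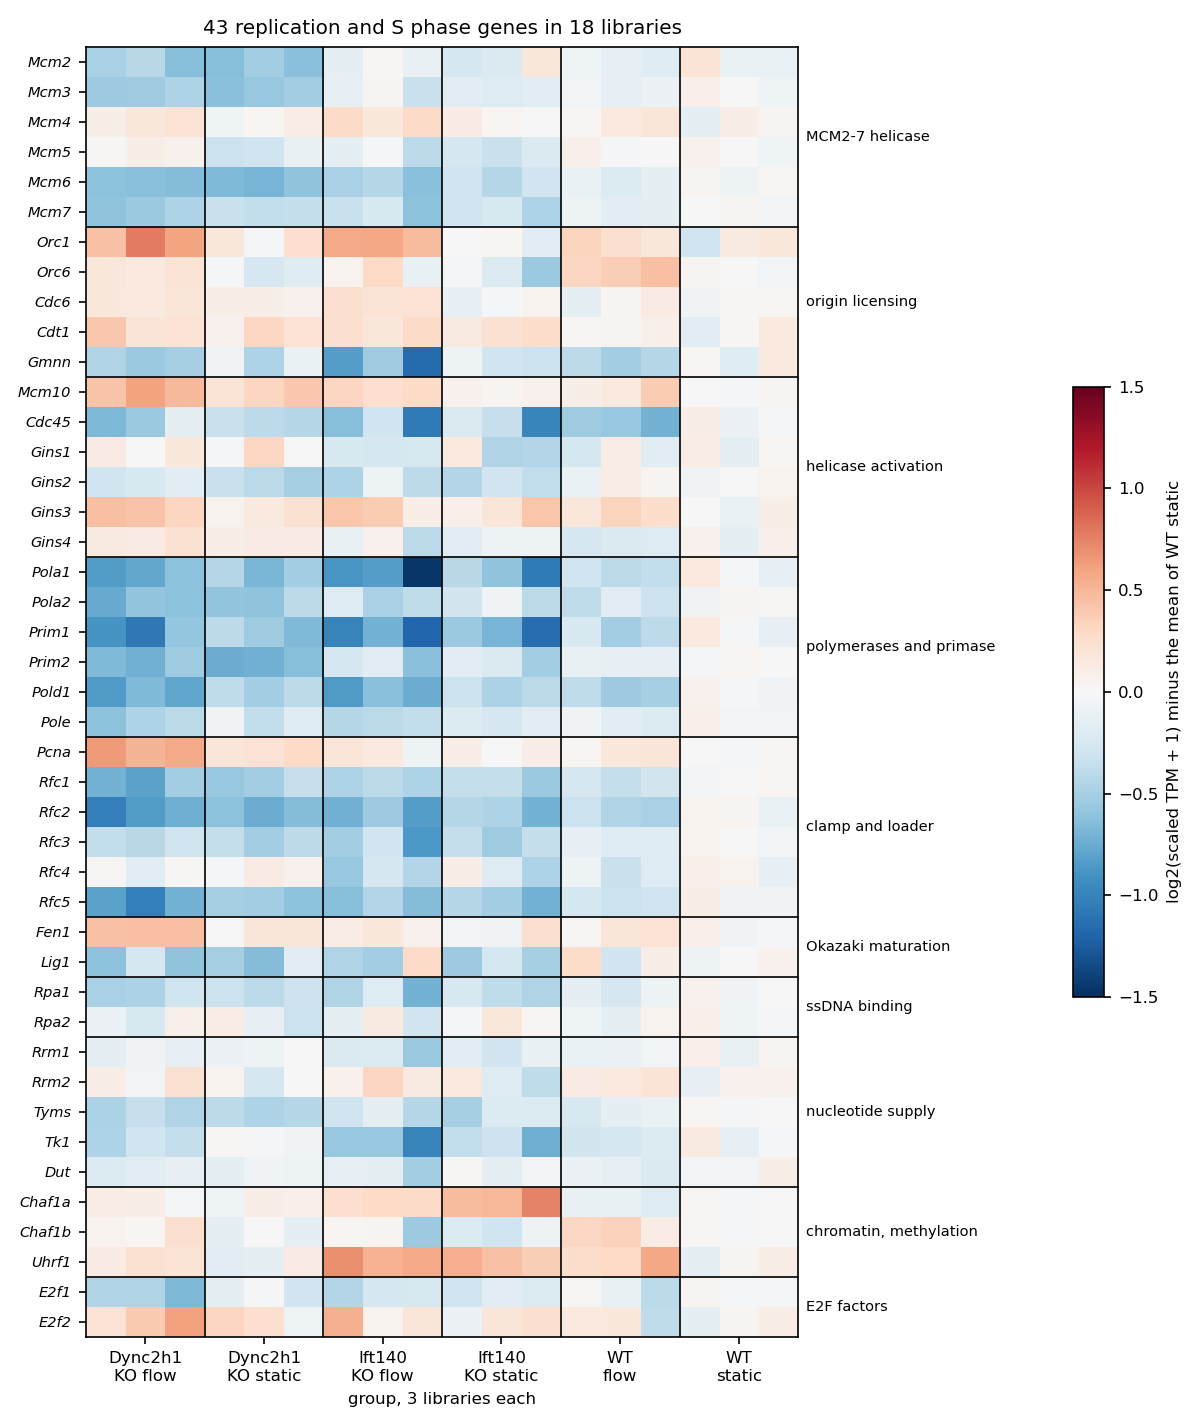
Heat map of the 43 members (rows, grouped by role) in 18 libraries (columns, 3 per group), coloured by log2(scaled TPM + 1) minus the mean of the 3 WT static libraries. Blue rows run through both knockout lines for the polymerase and primase genes and for Rfc1, Rfc2, Rfc3 and Rfc5, Mcm2 and Mcm3 are blue in the Dync2h1 knockout line, and Chaf1a is red in the Ift140 knockout line.

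Both lines were also set against each other, in a comparison chosen after the data had been seen. Static Dync2h1 knockout cells had 2 members higher (Mcm10 and Tk1) and 6 lower (Mcm2, Mcm3, Mcm6, Prim2, Chaf1a and Uhrf1) than static Ift140 knockout cells, 18.6% against 23% of all genes (10.8% higher, 12.2% lower). Wholly above lay 6 members and wholly below 6, where 19.9% and 20.4% of all genes did. Under flow 7 were higher and 7 lower, 32.6% against 33% of all genes (17.3% higher, 15.6% lower). Wholly above lay 9 members and wholly below 9, where 22% and 19.7% of all genes did, and 9 and 14 without replicate 3 of the Ift140 knockout flow group, where 27.1% and 25.1% did. With the library labelled Ift140 knockout flow replicate 3 left out the flow count was 9, against 27.3% of all genes, with Pcna and Fen1 higher and Mcm2, Mcm3, Mcm6, Mcm7, Prim2, Rfc5 and Uhrf1 lower. It was 7, 8 and 8 without Dync2h1 knockout flow replicates 1, 2 and 3 (25%, 27% and 27.5% of all genes). The static call of Mcm10 was lost in 6 of 17 alternative settings. Without scaling the split was 1 higher and 6 lower static and 1 higher and 13 lower under flow, where the median of all genes moved to -0.13, and with quantile normalisation it was 4 and 10 under flow.

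**Figure D2:**
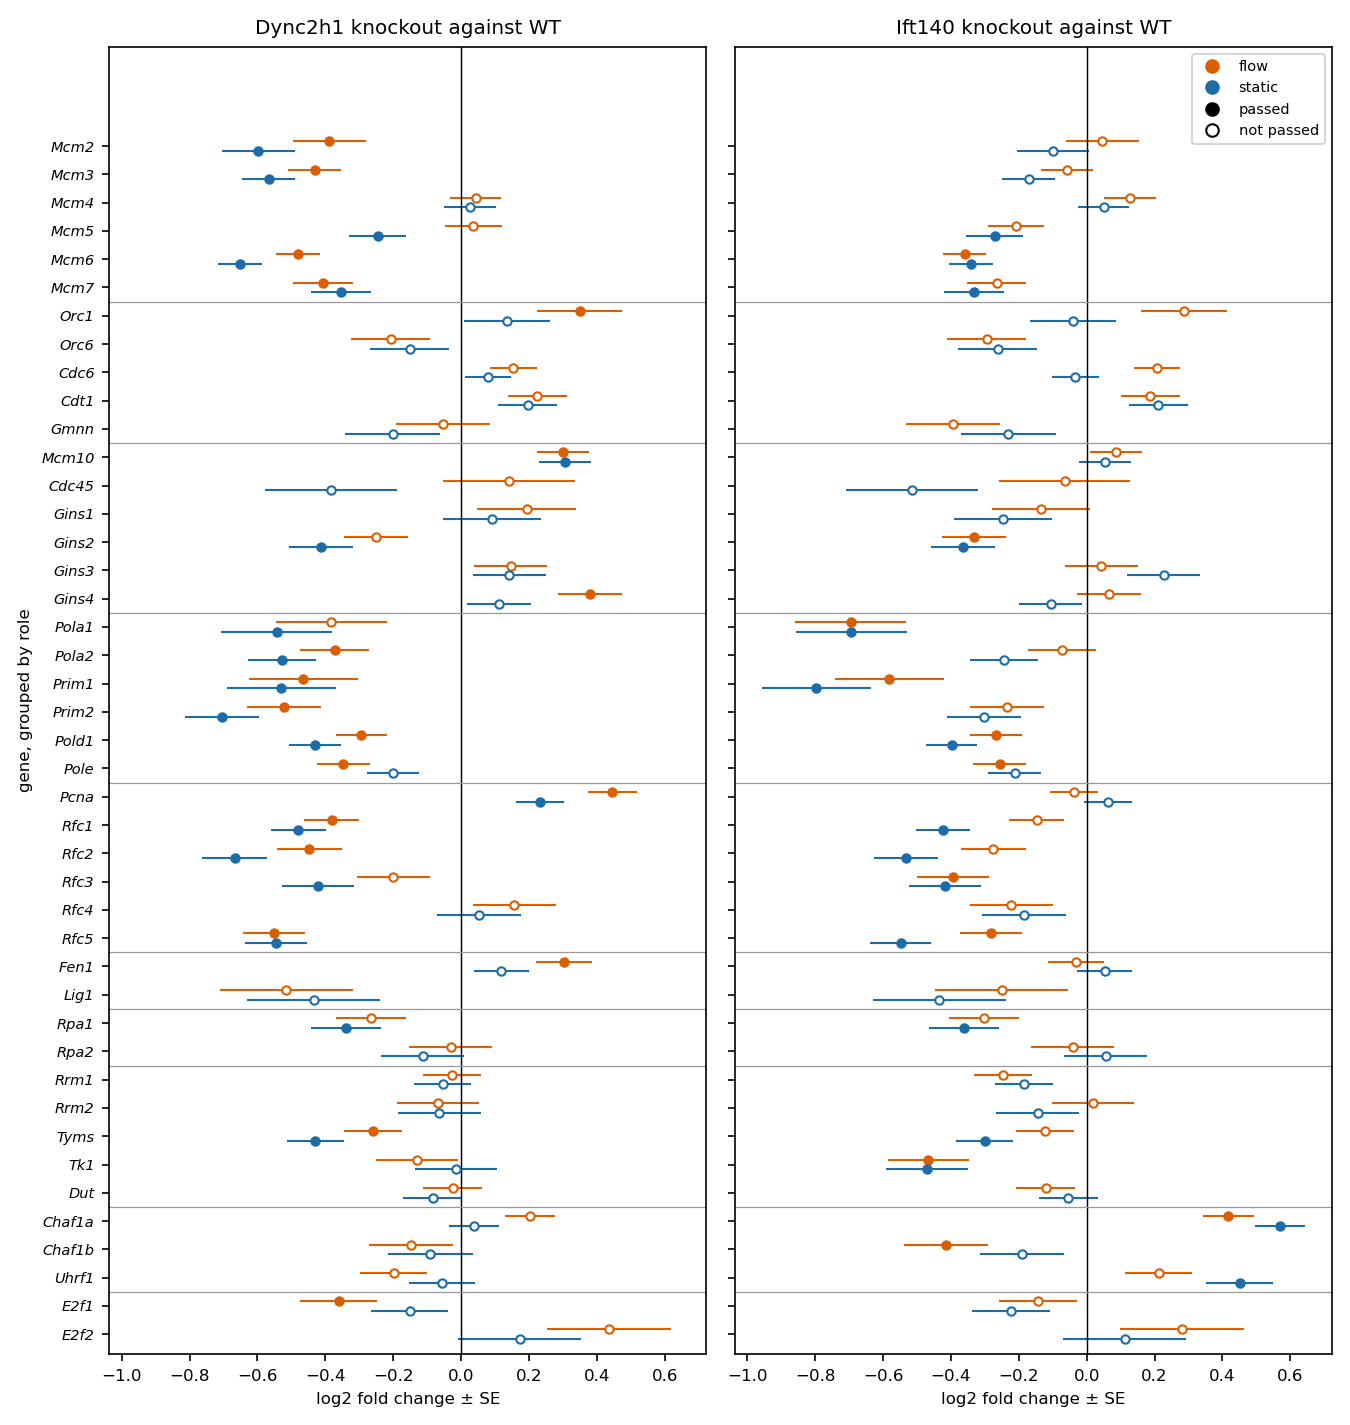
Log2 fold change with its standard error (x axis) for each member (rows, grouped by role) in Dync2h1 knockout against WT (left) and Ift140 knockout against WT (right), under flow (orange) and static (blue), filled where the adjusted p was under 0.05. The polymerase and primase genes lie left of 0 in all 4 comparisons, and Chaf1a lies right of 0 with filled points in the Ift140 knockout line.

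Among the 6 subunits of the MCM2-7 helicase, 5 were lower in static Dync2h1 knockout cells and 3 in static Ift140 knockout cells, Mcm4 being the exception in the first. Of all genes 14.1% and 9.08% were lower there. Mcm6 had 336, 334 and 330.2 TPM in Dync2h1 knockout, 370.2, 385 and 335 TPM in Ift140 knockout and 481, 448 and 468 TPM in WT libraries under flow. Static it had 326, 319 and 340.3 TPM in Dync2h1 knockout, 418, 384 and 424 TPM in Ift140 knockout and 534, 490.3 and 528 TPM in WT libraries. Every knockout library lay below every WT library of the same condition, and the Dync2h1 knockout line was the lower of the knockouts in static cells. The change was -0.65 on the log2 scale (SE 0.06, adjusted p = 2.23e-06) in static Dync2h1 knockout cells and -0.34 (SE 0.06, adjusted p = 0.0018) in static Ift140 knockout cells. Under flow it was -0.48 on the log2 scale (SE 0.06, adjusted p = 4.47e-05) for Dync2h1 and -0.36 (SE 0.06, adjusted p = 0.00133) for Ift140. Without the third Ift140 knockout flow library the last value was -0.30 on the log2 scale (adjusted p = 0.00339), and with only the 2 groups in the fit its call was lost (adjusted p = 0.0871). The direct difference of Dync2h1 from Ift140 knockout cells was -0.31 on the log2 scale (SE 0.06, adjusted p = 0.00242) in static cells.

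Mcm3 and Mcm2 set the lines apart. Mcm3 had 148, 154 and 159 TPM in static Dync2h1 knockout, 205, 199 and 204 TPM in static Ift140 knockout and 239.6, 226 and 219 TPM in static WT libraries. Mcm2 had 184, 199.5 and 185 TPM in static Dync2h1 knockout, 241, 247 and 323 TPM in static Ift140 knockout and 329.8, 268 and 267 TPM in static WT libraries. For both genes all 3 Dync2h1 knockout libraries lay below all the others, while Ift140 knockout and WT libraries overlapped for Mcm2 and did not for Mcm3. Against WT the Dync2h1 knockout change was -0.57 on the log2 scale (SE 0.08, adjusted p = 5.62e-05) for Mcm3 and -0.60 (SE 0.11, adjusted p = 0.000592) for Mcm2, and against the Ift140 knockout -0.40 (SE 0.08, adjusted p = 0.00169) and -0.50 (SE 0.11, adjusted p = 0.00316). Under flow Mcm3 had 156, 157 and 166 TPM in Dync2h1 knockout, 209, 235 and 180.0 TPM in Ift140 knockout and 222, 210.1 and 214 TPM in WT libraries. Mcm2 then had 205, 215 and 185 TPM in Dync2h1 knockout, 260.3, 290.5 and 266 TPM in Ift140 knockout and 274, 263 and 253 TPM in WT libraries. Again the 3 Dync2h1 knockout libraries were below all 6 others, and the change from Ift140 knockout cells was -0.37 on the log2 scale (SE 0.08, adjusted p = 0.00186) for Mcm3 and -0.43 (SE 0.11, adjusted p = 0.00575) for Mcm2. Without the third Ift140 knockout flow library these were -0.47 on the log2 scale (adjusted p = 6.03e-05) and -0.45 (adjusted p = 0.0117).

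Mcm7, the subunit at the highest level of the set by TPM, had 561, 546 and 552 TPM in static Dync2h1 knockout, 576, 603 and 511 TPM in static Ift140 knockout and 707, 727 and 688 TPM in static WT libraries, with no overlap of either knockout with WT. The change was -0.35 on the log2 scale (SE 0.09, adjusted p = 0.00674) for Dync2h1 and -0.33 (SE 0.09, adjusted p = 0.0161) for Ift140, and the Ift140 call was lost without WT static replicate 2 or Ift140 knockout static replicate 3 (adjusted p up to 0.0749). Mcm5 had 325, 341 and 336 TPM in Dync2h1 knockout cells under flow and 257, 262 and 297 TPM in static ones, without overlap. It fell in static cells of both lines against WT (log2 fold change -0.25, adjusted p = 0.0384, for Dync2h1; -0.27, adjusted p = 0.034, for Ift140) and rose under flow in Dync2h1 knockout cells (0.30, SE 0.08, adjusted p = 0.0202), the last call being lost in 7 of 17 alternative settings. Mcm4, which ranged from 205 to 275 TPM over the 18 libraries, passed in no comparison.

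Of the 5 genes of origin recognition and licensing, 1 passed under flow in Dync2h1 knockout, 3 in Ift140 knockout (4 without the third flow library, Orc6 being added) and 2 in WT cells, and none between knockout and WT static cells. Of all genes 19%, 17.5% (16.6% without the third flow library) and 20.5% passed under flow, in that order. Between knockout and WT static cells 27.6% (Dync2h1) and 18.1% (Ift140) of all genes passed. Orc1, the largest subunit of the origin recognition complex, had 16, 20.4 and 17.8 TPM under flow and 13.1, 11.4 and 13.9 TPM static in Dync2h1 knockout cells. In Ift140 knockout cells it had 17.5, 17.7 and 16.4 TPM under flow and 11.5, 11.8 and 10.2 TPM static, and in WT cells 14.8, 13.8 and 13.1 TPM under flow and 9.16, 12.7 and 13.1 TPM static. Flow libraries lay above static ones without overlap in all 3 genotypes, although in WT cells the lowest flow and the highest static library were nearly equal. It passed in Dync2h1 knockout cells (log2 fold change 0.47, SE 0.13, adjusted p = 0.0172) and in Ift140 knockout cells (0.58, SE 0.13, adjusted p = 0.0049; 0.61, adjusted p = 0.00808 without the third flow library). In WT cells the value was 0.25 on the log2 scale (SE 0.13, adjusted p = 0.188). The difference between knockout and WT in this response did not pass (log2 fold change 0.21, adjusted p = 0.799 for Dync2h1, 0.33, adjusted p = 0.694 for Ift140). Without scaling, or without Dync2h1 knockout static replicate 1 or 2 or flow replicate 2, the Dync2h1 call was lost (adjusted p up to 0.123). Under flow Orc1 was also higher in Dync2h1 knockout than in WT cells (log2 fold change 0.35, SE 0.13, adjusted p = 0.0483), a call lost in 10 of 17 alternative settings.

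Geminin ran the other way. Gmnn had 52.5, 48.7 and 50.7 TPM under flow and 69.4, 52 and 67.2 TPM static in Dync2h1 knockout cells, 40, 49.3 and 31.8 TPM under flow and 68.3, 58.4 and 57.3 TPM static in Ift140 knockout cells, and 54.4, 50 and 53.3 TPM under flow and 73.2, 63.5 and 79.9 TPM static in WT cells. It fell under flow in Ift140 knockout cells (log2 fold change -0.61, SE 0.14, adjusted p = 0.00665; -0.45, adjusted p = 0.0262 without the third flow library) and in WT cells (-0.45, SE 0.14, adjusted p = 0.0328), where flow and static libraries did not overlap. In Dync2h1 knockout cells they overlapped and the value was -0.30 on the log2 scale (SE 0.14, adjusted p = 0.16). The Ift140 knockout call was lost with only the 2 groups in the fit (adjusted p = 0.0895). The WT call was lost without any one of WT static replicates 1 and 3 and WT flow replicates 1, 2 and 3 (adjusted p up to 0.127). Orc6, the smallest origin recognition subunit and the highest of these genes by TPM, had 114, 119 and 125 TPM in WT flow and 93.8, 91.3 and 88.7 TPM in WT static libraries (log2 fold change 0.38, SE 0.12, adjusted p = 0.0305). That call was lost without any WT static library or WT flow replicate 2 or 3. In Dync2h1 knockout cells Orc6 had 103, 101 and 105 TPM under flow and 90.2, 76.2 and 80.5 TPM static, also without overlap. In Ift140 knockout cells it had 94.8, 113 and 84.7 TPM under flow and 89.2, 79.2 and 61.9 TPM static, which overlapped. Neither knockout line passed with all libraries, and the Ift140 knockout line did without the third flow library. Cdc6, which loads the helicase, had 70.8, 69 and 69.8 TPM under flow and 54.8, 58.9 and 62.1 TPM static in Ift140 knockout cells (log2 fold change 0.25, SE 0.07, adjusted p = 0.0191; 0.25, adjusted p = 0.0314 without the third flow library). Its call was lost without Ift140 knockout static replicate 1 or 2, without scaling, with quantile normalisation, or with only the 2 groups in the fit (adjusted p between 0.0616 and 0.187). Cdt1, its partner in loading, ranged from 55.4 to 82.7 TPM and passed in no comparison.

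Of the genes that activate the helicase, Mcm10 was higher in the Dync2h1 knockout line while Gins2 was lower in static cells of both lines. Mcm10, which helps the helicase to start, had 83.5, 94.1 and 86.6 TPM in Dync2h1 knockout, 77.8, 73.7 and 75.9 TPM in Ift140 knockout and 65.7, 68.5 and 80.6 TPM in WT libraries under flow. Static it had 71.1, 77.2 and 81.8 TPM in Dync2h1 knockout, 64.4, 63.5 and 64.7 TPM in Ift140 knockout and 61.4, 60.5 and 63.5 TPM in WT libraries. Dync2h1 knockout libraries lay above WT libraries in both conditions. The change was 0.30 on the log2 scale (SE 0.08, adjusted p = 0.00766) under flow and 0.31 (SE 0.08, adjusted p = 0.0071) static, and both calls were lost without scaling (adjusted p 0.289 and 0.0561). Gins2, a GINS subunit, had 36.3, 34.5 and 32.5 TPM in static Dync2h1 knockout, 33.7, 37.8 and 35.4 TPM in static Ift140 knockout and 44.6, 46 and 47.8 TPM in static WT libraries, all knockout libraries below all WT ones. The change was -0.41 on the log2 scale (SE 0.09, adjusted p = 0.00377) for Dync2h1 and -0.37 (SE 0.09, adjusted p = 0.0132) for Ift140. Under flow Gins2 passed against WT only in Ift140 knockout cells. That call was lost in 6 of 17 alternative settings, among them without the third Ift140 knockout flow library. Gins4, another GINS subunit, had 85.7, 84.6 and 91.2 TPM in Dync2h1 knockout and 65.3, 66.9 and 68 TPM in WT libraries under flow (log2 fold change 0.38, SE 0.09, adjusted p = 0.0059), a call lost without scaling. Cdc45, the helicase cofactor, had 98.7, 96.1 and 87 TPM in WT flow and 153, 135 and 142 TPM in WT static libraries, which did not overlap (log2 fold change -0.60, SE 0.19, adjusted p = 0.0388). Its call was lost without any one of those 6 libraries (adjusted p up to 0.119). Gins1 and Gins3 ranged from 42.6 to 73 and from 13.2 to 19.8 TPM and passed in no comparison.

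The 6 polymerase and primase genes all had negative log2 fold changes in both knockouts against WT, static and under flow. All 6 lay wholly below WT static in both lines, where 24.3% (Dync2h1) and 19% (Ift140) of all genes did. For Pola2 the highest static Ift140 knockout library (81.88 TPM) and the lowest static WT library (81.95 TPM) were nearly equal. Lower calls numbered 5 of 6 in static Dync2h1 knockout cells, 3 in static Ift140 knockout cells, 5 in Dync2h1 knockout cells under flow and 4 in Ift140 knockout cells under flow (3 without the third library, Prim1 being lost). In that order 14.1%, 9.08%, 14% and 7.52% of all genes were lower. Prim2, the large primase subunit, had 41.1, 42 and 44.4 TPM in static Dync2h1 knockout, 62.1, 59.7 and 48.4 TPM in static Ift140 knockout and 68.4, 71.2 and 69.8 TPM in static WT libraries. Under flow it had 43.8, 41.9 and 48.1 TPM in Dync2h1 knockout, 58.7, 61.8 and 44.7 TPM in Ift140 knockout and 64.7, 64.1 and 64 TPM in WT libraries. Dync2h1 knockout libraries were below every WT library. The change was -0.70 on the log2 scale (SE 0.11, adjusted p = 0.00017) static and -0.52 (SE 0.11, adjusted p = 0.00188) under flow, and the static difference from Ift140 knockout cells was -0.40 (SE 0.11, adjusted p = 0.0144). That difference was lost without Ift140 knockout static replicate 1 or 2 or Dync2h1 knockout static replicate 1 (adjusted p up to 0.0662). Prim1, the catalytic primase subunit, had 108, 98.6 and 89.8 TPM in static Dync2h1 knockout, 96.7, 87.7 and 64.3 TPM in static Ift140 knockout and 158, 140.3 and 131 TPM in static WT libraries. It was lower in both lines, with changes of -0.53 on the log2 scale (SE 0.16, adjusted p = 0.0215) for Dync2h1 and -0.80 (SE 0.16, adjusted p = 0.00267) for Ift140. Pola1, the catalytic subunit of polymerase alpha, had 94.9, 78.9 and 89.5 TPM in static Dync2h1 knockout, 95.6, 83.6 and 61.1 TPM in static Ift140 knockout and 142, 125 and 118 TPM in static WT libraries. It too was lower in both, with changes of -0.54 on the log2 scale (SE 0.16, adjusted p = 0.021) for Dync2h1 and -0.69 (SE 0.16, adjusted p = 0.00779) for Ift140. Under flow Pola1 had 69.2, 71.8 and 45.9 TPM in Ift140 knockout and 104, 96.5 and 98.6 TPM in WT libraries (log2 fold change -0.69, SE 0.16, adjusted p = 0.009; -0.49, adjusted p = 0.0341 without the third Ift140 knockout flow library), and the call was lost with only the 2 groups in the fit (adjusted p = 0.0684).

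Pold1, the catalytic subunit of the lagging strand polymerase delta, was the one member whose fall under flow passed in all 3 genotypes. It had 62.7, 71.5 and 65.7 TPM under flow and 87, 79.6 and 86.4 TPM static in Dync2h1 knockout cells, 62.7, 73.3 and 67.7 TPM under flow and 91.1, 81.7 and 86 TPM static in Ift140 knockout cells, and 87.6, 77.6 and 80.5 TPM under flow and 119.6, 113 and 109.6 TPM static in WT cells. In each genotype the flow libraries lay below the static ones. The flow change was -0.34 on the log2 scale (SE 0.08, adjusted p = 0.0056) in Dync2h1 knockout cells, -0.34 (SE 0.08, adjusted p = 0.00548) in Ift140 knockout cells (-0.34, adjusted p = 0.0114 without the third flow library) and -0.47 (SE 0.08, adjusted p = 0.00037) in WT cells. The groups of those 3 comparisons share no library. Their p-values are not independent, because each uses the same estimate of the spread from all 18 libraries. With only the 2 groups in the fit the Ift140 knockout call was lost (adjusted p = 0.111). Pold1 was also lower in both static knockouts than in WT, with changes of -0.43 on the log2 scale (SE 0.08, adjusted p = 0.000537) for Dync2h1 and -0.40 (SE 0.08, adjusted p = 0.00187) for Ift140. Under flow these were -0.29 on the log2 scale (SE 0.08, adjusted p = 0.00813) for Dync2h1 and -0.27 (SE 0.08, adjusted p = 0.0267) for Ift140. The last was -0.27 on the log2 scale (adjusted p = 0.0467) without the third Ift140 knockout flow library. Pole, the leading strand polymerase and the highest of the 6 by TPM, had 114, 126 and 131 TPM under flow and 167, 135 and 154 TPM static in Dync2h1 knockout cells (log2 fold change -0.29, SE 0.08, adjusted p = 0.0163). In WT flow libraries it had 167, 155 and 151 TPM, against which the change in Dync2h1 knockout cells under flow was -0.35 on the log2 scale (SE 0.08, adjusted p = 0.00306). The flow call for Pole was lost without Dync2h1 knockout flow replicate 1, static replicate 1 or static replicate 3, or with only the 2 groups in the fit. Pole flow libraries also lay wholly below static ones in Ift140 knockout cells (129, 131 and 135 against 151, 145 and 154 TPM). They did so in WT cells too (167, 155 and 151 against 183, 169 and 169 TPM), and neither change passed.

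**Figure D3:**
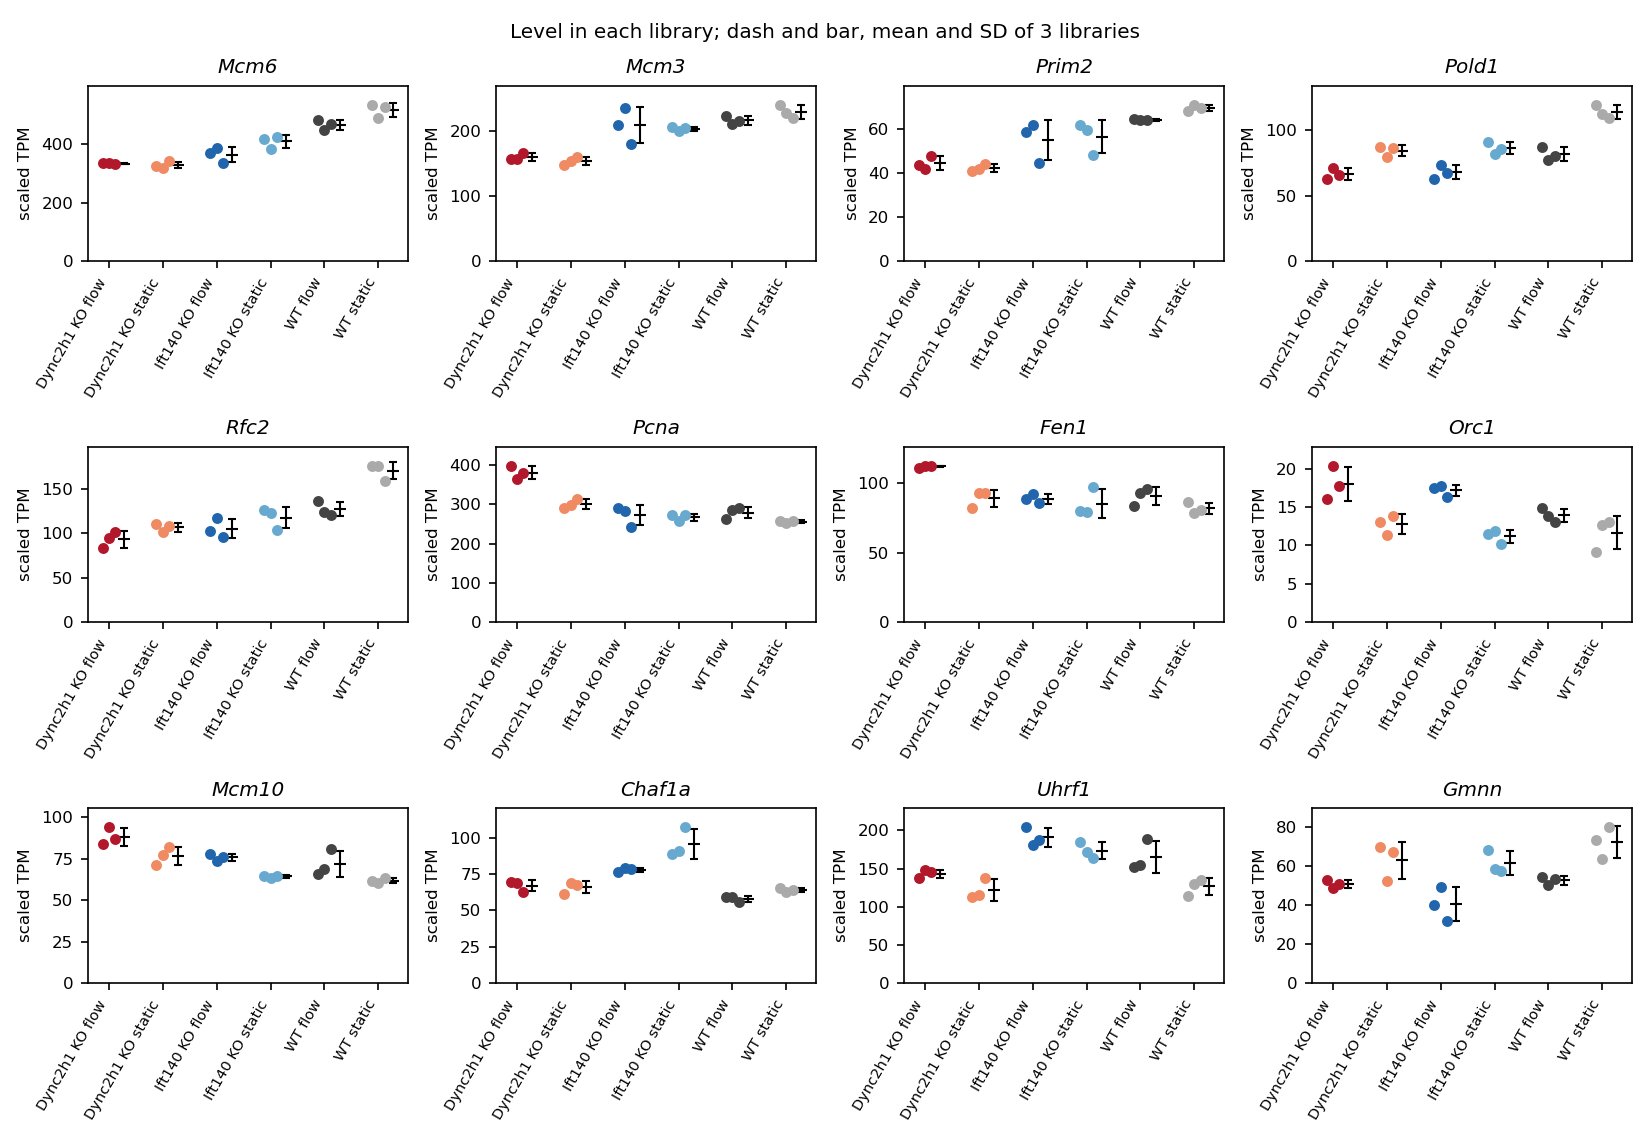
Scaled TPM (y axis, from 0) of 12 members in each of the 18 libraries, by group, with the mean and SD of 3 libraries beside the points. Pold1 lies lower under flow than static in each genotype, Mcm6, Mcm3 and Prim2 are lowest in the Dync2h1 knockout groups, Pcna and Fen1 are highest in Dync2h1 knockout cells under flow, and Chaf1a is highest in static Ift140 knockout cells.

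Clamp and clamp loader genes moved apart: 4 of the 5 RFC genes were lower in each static knockout, while Pcna was higher in Dync2h1 knockout cells. Lower calls were 14.1% of all genes in static Dync2h1 and 9.08% in static Ift140 knockout cells. Rfc2, a small loader subunit, had 111, 101 and 108 TPM in static Dync2h1 knockout, 127, 123 and 104 TPM in static Ift140 knockout and 176, 175 and 159 TPM in static WT libraries, without overlap with WT. The change was -0.67 on the log2 scale (SE 0.10, adjusted p = 8.58e-05) for Dync2h1 and -0.53 (SE 0.10, adjusted p = 0.00119) for Ift140. Rfc5, another small subunit, had 84.6, 83 and 77.9 TPM in static Dync2h1 knockout, 89.1, 84.1 and 72.8 TPM in static Ift140 knockout and 129, 116 and 116 TPM in static WT libraries, again all below WT (log2 fold change -0.55, SE 0.09, adjusted p = 0.000319, for Dync2h1; -0.55, SE 0.09, adjusted p = 0.000638, for Ift140). Rfc1, the large subunit, and Rfc3 were lower as well, Rfc1 at 109, 112 and 127 TPM in static Dync2h1 knockout, 126, 126 and 109.8 TPM in static Ift140 knockout and 158, 163 and 165 TPM in static WT libraries (log2 fold change -0.48, SE 0.08, adjusted p = 0.00035, for Dync2h1; -0.42, SE 0.08, adjusted p = 0.00182, for Ift140). Rfc3 changed by -0.42 on the log2 scale (adjusted p = 0.00751) for Dync2h1 and -0.42 (adjusted p = 0.0128) for Ift140. Rfc2 also had 136, 124 and 121 TPM in WT flow libraries, below every static WT library (log2 fold change -0.42, SE 0.10, adjusted p = 0.00532). Rfc1 and Rfc5 fell under flow in WT cells too (log2 fold change -0.30, adjusted p = 0.0159 for Rfc1; -0.30, adjusted p = 0.0305 for Rfc5), and Rfc5 in Dync2h1 knockout cells (-0.30, adjusted p = 0.0305), but the Rfc5 calls were lost without any one of 5 (WT) or 4 (Dync2h1) single libraries, and the Rfc1 call without WT flow replicate 2, WT static replicate 3 or scaling. Rfc4, between 50.9 and 83.2 TPM, passed against WT in no comparison.

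Pcna, the sliding clamp, had 398, 364 and 379 TPM in Dync2h1 knockout, 290.3, 284 and 242 TPM in Ift140 knockout and 261, 285 and 289.9 TPM in WT libraries under flow. Static it had 290.3, 297 and 314 TPM in Dync2h1 knockout, 272, 257 and 273 TPM in Ift140 knockout and 257, 251 and 258 TPM in WT libraries. The 3 Dync2h1 knockout flow libraries were the highest of all 18. The change was 0.45 on the log2 scale (SE 0.07, adjusted p = 0.000206) against WT flow and 0.34 (SE 0.07, adjusted p = 0.00331) against their own static libraries. Against Ift140 knockout flow it was 0.48 on the log2 scale (SE 0.07, adjusted p = 0.000104), and 0.40 (adjusted p = 0.00018) without the third library of that group. The call of flow against static was lost without scaling or with quantile normalisation (adjusted p up to 0.099), and the static difference from WT (log2 fold change 0.23, SE 0.07, adjusted p = 0.0224) was lost in 7 of 17 settings. Part of this signal could belong to a copy of the gene: Pcna-ps2, a processed pseudogene on chromosome 19, shares 19.1% of the 50-base words of Pcna transcripts and was listed at 126 to 182 TPM. With the 2 genes summed, Dync2h1 knockout flow still exceeded WT flow by 0.37 (adjusted p = 0.00115) and its static libraries by 0.27 (adjusted p = 0.0156) on the log2 scale.

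Fen1, the nuclease that trims Okazaki fragments, was likewise highest in Dync2h1 knockout cells under flow. It had 111, 112 and 113 TPM under flow and 82.1, 92.9 and 92.8 TPM static in Dync2h1 knockout cells, 88.5, 92.3 and 85.5 TPM in Ift140 knockout and 83.8, 93.2 and 95.6 TPM in WT libraries under flow. All 3 Dync2h1 knockout flow libraries were above all of these. It rose under flow in that line (log2 fold change 0.33, SE 0.08, adjusted p = 0.0108) and was higher than in WT flow libraries (0.30, SE 0.08, adjusted p = 0.0112). Both calls were lost without scaling and with quantile normalisation, the first also without Dync2h1 knockout static replicate 1 and the second without WT flow replicate 1. Lig1, the ligase that joins the fragments, spread from 30.8 to 59.8 TPM, with 59.1, 39.8 and 51.8 TPM in WT flow libraries alone, and passed in no comparison. Rpa1, the large subunit of the single-strand binding protein, had 222, 212 and 224 TPM in static Dync2h1 knockout, 234, 213 and 202 TPM in static Ift140 knockout and 289.6, 269 and 276 TPM in static WT libraries. All knockout libraries were below all WT ones (log2 fold change -0.34, SE 0.10, adjusted p = 0.0224, for Dync2h1; -0.36, SE 0.10, adjusted p = 0.0236, for Ift140), and each call was lost without any one of 4 single libraries. Rpa2 ranged from 49.3 to 70.3 TPM and passed in no comparison.

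Of the 5 nucleotide supply genes Tyms and Tk1 changed and the others did not pass. Rrm1, the large ribonucleotide reductase subunit and the highest of the 5 by TPM, had 256, 271 and 259 TPM in Dync2h1 knockout, 243, 245 and 192 TPM in Ift140 knockout and 263, 265 and 274 TPM in WT libraries under flow. Static it had 266, 268 and 281 TPM in Dync2h1 knockout, 253, 231 and 262 TPM in Ift140 knockout and 296, 261 and 290.1 TPM in WT libraries. Ift140 knockout flow libraries lay below WT flow libraries, with replicate 3 the lowest of all 18 (log2 fold change -0.25, SE 0.09, adjusted p = 0.0639), and both static knockout groups overlapped with WT. Rrm2, the small subunit, ranged from 108 to 177 TPM and Dut, the dUTPase, from 94.8 to 144 TPM, and none of these 3 genes passed in any comparison. Tyms, thymidylate synthase, had 145, 138 and 142 TPM in static Dync2h1 knockout, 136, 166 and 166 TPM in static Ift140 knockout and 196, 187 and 192 TPM in static WT libraries, all knockout libraries below WT (log2 fold change -0.43, SE 0.09, adjusted p = 0.00135, for Dync2h1; -0.30, SE 0.09, adjusted p = 0.0224, for Ift140). Tk1, cytosolic thymidine kinase, had 114, 111 and 109 TPM in static Dync2h1 knockout, 87, 90.3 and 66.9 TPM in static Ift140 knockout and 123, 103 and 111 TPM in static WT libraries. The Ift140 knockout libraries were below both others. Their change against WT was -0.47 on the log2 scale (SE 0.12, adjusted p = 0.0128), and the difference of Dync2h1 knockout from Ift140 knockout was 0.46 (SE 0.12, adjusted p = 0.0125). That difference was lost without Ift140 knockout static replicate 3. Under flow Tk1 had 75.6, 75.6 and 55.5 TPM in Ift140 knockout and 92.4, 93.8 and 97.6 TPM in WT libraries (log2 fold change -0.47, SE 0.12, adjusted p = 0.016; -0.32, adjusted p = 0.0589 without the third Ift140 knockout flow library).

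Chaf1a, the large subunit of the histone chaperone CAF-1 that follows the fork, and Uhrf1, which brings the maintenance methyltransferase to new DNA, were higher in the Ift140 knockout line. Chaf1a had 61.2, 68.8 and 67.6 TPM in static Dync2h1 knockout, 89.2, 90.9 and 108 TPM in static Ift140 knockout and 65.4, 63 and 63.9 TPM in static WT libraries. Under flow it had 69.4, 69 and 63 TPM in Dync2h1 knockout, 76.4, 79.3 and 78.3 TPM in Ift140 knockout and 59.4, 59.4 and 55.7 TPM in WT libraries. In both conditions the 3 Ift140 knockout libraries were above the 6 others. Against WT the change was 0.57 on the log2 scale (SE 0.07, adjusted p = 8.21e-05) static and 0.42 (SE 0.07, adjusted p = 0.00123) under flow (0.41, adjusted p = 0.00338 without the third library). The difference of Dync2h1 knockout from Ift140 knockout cells was -0.53 on the log2 scale (SE 0.07, adjusted p = 9.11e-05) static and -0.21 (SE 0.07, adjusted p = 0.0361) under flow, the flow call being lost without the third Ift140 knockout flow library. Within the Ift140 knockout line flow libraries were below static ones (log2 fold change -0.29, SE 0.07, adjusted p = 0.0134; -0.29, adjusted p = 0.0237 without the third flow library), a call lost without static replicate 3, without scaling, or with only the 2 groups in the fit. Uhrf1 had 113, 115 and 138 TPM in static Dync2h1 knockout, 185, 171 and 163 TPM in static Ift140 knockout and 115, 129.6 and 136 TPM in static WT libraries. The Ift140 knockout libraries were again highest. The change was 0.45 on the log2 scale (SE 0.10, adjusted p = 0.00464) against WT, and the difference of Dync2h1 knockout from Ift140 knockout cells was -0.51 (SE 0.10, adjusted p = 0.00152) and, under flow, -0.41 (SE 0.10, adjusted p = 0.0048). Leaving out the third Ift140 knockout flow library, the last was -0.42 on the log2 scale (adjusted p = 0.00999). Under flow Uhrf1 had 205, 181 and 187 TPM in Ift140 knockout and 152, 155 and 189 TPM in WT libraries, which overlapped (log2 fold change 0.21, SE 0.10, adjusted p = 0.163).

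Neighbouring and copied genes bear on both. Ubxn6 lies on the opposite strand and overlaps Chaf1a (chromosome 17, 56067045 to 56075028, GRCm38), and 49.7% of the 50-base words of annotated Chaf1a transcripts are also in Ubxn6 transcripts. It too was higher in Ift140 knockout than in WT cells (log2 fold change 0.33, adjusted p = 0.023 static, and 0.54, adjusted p = 0.00101 under flow; 0.58, adjusted p = 0.00145 under flow without the third Ift140 knockout library). Gm5648, a processed pseudogene on chromosome X, shares 14.7% of the words of Uhrf1, was listed at 18.7 to 41.1 TPM and was higher in static Ift140 knockout than in WT cells (0.68, adjusted p = 0.000496). Reads of these pairs could be split between partners, so the levels of Chaf1a, Uhrf1 and Pcna carry that uncertainty, and for Chaf1a and Uhrf1 its part in the results was not tested. Gins2 overlaps Gse1 (65.4% of its words, Gse1 at 4.64 to 17.6 TPM) and Fen1 overlaps an antisense gene, Gm10143 (75.4%, at 0.678 to 1.59 TPM), while Rfc2 shares 14.3% of its words with Lat2 on the opposite strand (0 to 6.21 TPM). Mcm7 shares 16.5% with a pseudogene, Gm5487. Whether the counting used strand is not given in the sources used here.

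In WT cells Uhrf1 also responded to flow, at 152, 155 and 189 TPM in flow and 115, 129.6 and 136 TPM in static libraries (log2 fold change 0.38, SE 0.10, adjusted p = 0.0115), a call lost without WT static replicate 1 or WT flow replicate 3. Chaf1b, the middle CAF-1 subunit and the highest of these 3 by mean TPM, had 166, 166 and 111 TPM in Ift140 knockout and 201, 207 and 175 TPM in WT libraries under flow (log2 fold change -0.41, SE 0.12, adjusted p = 0.035). Without the third Ift140 knockout flow library the change was -0.22 on the log2 scale (adjusted p = 0.0962). E2f1, a transcription factor that drives many of the members, had 10.4, 10.4 and 8.78 TPM under flow and 13.2, 14.3 and 11.8 TPM static in Dync2h1 knockout cells (log2 fold change -0.38, SE 0.11, adjusted p = 0.0305) and 14.8, 13.4 and 10.8 TPM in WT flow libraries (-0.36, SE 0.11, adjusted p = 0.0254). The flow call was lost without Dync2h1 knockout static replicate 1 or 2 or flow replicate 3 (adjusted p up to 0.122). The call against WT was lost without Dync2h1 knockout flow replicate 3, WT flow replicate 1 or 2, or other groups in the fit (adjusted p up to 0.12). E2f1 was in the low range of the set, where the pseudocount of 1 TPM understates a fold change, as was E2f2, between 2.35 and 5.69 TPM, which passed in no comparison.

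Over all members the flow response was small, mixed in direction in the knockout lines and leaning to lower levels in WT cells. In Dync2h1 knockout cells 4 members rose (Pcna, Fen1, Orc1 and Mcm5) and 5 fell (Pold1, Pole, E2f1, Rfc5 and Tk1), 20.9% against 19% of all genes (10.8% higher, 8.15% lower), with a median of 0.03 over the members and 0.01 over all genes. The Tk1 call (log2 fold change -0.36, adjusted p = 0.0491) was lost in 9 of 17 alternative settings, among them each of the 6 libraries left out. Without scaling that split was 0 and 10, and with quantile normalisation 1 and 8, so the rises in this line hold relative to the scaling used. In Ift140 knockout cells 3 rose (Orc1, Cdc6 and Mcm10) and 3 fell (Pold1, Gmnn and Chaf1a), 14% against 17.5% of all genes (9.21% higher, 8.27% lower), with medians of -0.03 and 0.01. Without the third flow library the count was also 6, against 16.6% of all genes, with Mcm10 lost and Orc6 added, and the member median was 0.04. The Mcm10 call was lost in 11 of 17 settings. With quantile normalisation that split was 1 and 6. In WT cells 2 rose (Uhrf1 and Orc6) and 6 fell (Pold1, Rfc2, Rfc1, Rfc5, Gmnn and Cdc45), 18.6% against 20.5% of all genes (10.2% higher, 10.3% lower), with medians of -0.12 and -0.01. The share of members that passed was thus near the share of all genes in each genotype, although with weights per library 17 of the 43 passed in WT cells against 28.6% of all genes. In direction the members leaned lower than all genes in WT cells, by the calls and median above and by the overlaps below. That difference was not tested. Wholly above static lay 10 members and wholly below 6 in Dync2h1 knockout cells, where 22.8% and 18.3% of all genes did. In Ift140 knockout cells these were 4 and 4, where 13.6% and 13.4% did, and 9 and 4 without the third flow library, where 20.8% and 20.1% did. In WT cells 8 members lay wholly above static and 20 wholly below, where 19.5% and 20.5% of all genes did. These counts depended on single libraries: in WT cells 8 became 3 without WT static replicate 1, WT static replicate 3 or WT flow replicate 3 (15%, 16.3% and 16% of all genes) and 4 without WT flow replicate 2 (15.6%). In Dync2h1 knockout cells 9 became 2 and 4 without static replicates 1 and 2 (12.7% and 14% of all genes), and 5 without flow replicate 1 or 2 (12.9% and 14.4%).

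No member passed in the difference of flow responses between knockout and WT. For Ift140 knockout minus WT 0.227% of all genes passed in limma, 2 members and 7.94% of all genes had an unadjusted p under 0.05 and the smallest adjusted p of a member was 0.529. Without the third Ift140 knockout flow library 0 members and 0.338% of all genes passed. For Dync2h1 knockout minus WT these were 0.485% of all genes, 2 members and 9.78% of all genes, and 0.442. The median difference was 0.06 over the members and 0.02 over all genes for Ift140 (0.13 over the members without the third library), and 0.10 and 0.02 for Dync2h1. A p that misses the threshold does not show that the responses were equal.

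Mitosis genes, set beside the members as the next stage of the cycle, fell in larger number under flow. Of 30 such genes 1 rose and 14 fell in Dync2h1 knockout cells, 0 and 14 in Ift140 knockout cells, and 0 and 21 in WT cells, with median log2 fold changes of -0.30, -0.30 and -0.50. Of all genes 10.8% rose and 8.15% fell in Dync2h1 knockout cells, 9.21% and 8.27% in Ift140 knockout cells, and 10.2% and 10.3% in WT cells. Without the third Ift140 knockout flow library 0 rose and 14 fell in that line, 12 of them shared with the 14 above, with a median of -0.21. Bub1b changed by -0.56 on the log2 scale (adjusted p = 0.000212), -0.73 (adjusted p = 2.16e-05) and -0.93 (adjusted p = 1.29e-06) in these 3 genotypes. Nusap1, a spindle protein gene, changed by -0.67 on the log2 scale (adjusted p = 9.19e-05), -0.74 (adjusted p = 4.57e-05) and -1.02 (adjusted p = 1.35e-06). Against WT in static cells 1 mitosis gene was higher and 7 were lower in Dync2h1 knockout cells (23.3% lower, against 39.5% of the members and 14.1% of all genes). In Ift140 knockout cells these were 0 and 5 (16.7% lower, against 32.6% of the members and 9.08% of all genes). Mad2l1, a spindle checkpoint gene, changed by -0.77 on the log2 scale (adjusted p = 3.82e-06) in static Dync2h1 knockout cells. Under flow 8 mitosis genes were higher and 3 lower in Dync2h1 knockout than in WT cells, where 16.1% and 14% of all genes were. Other scalings were not run for this list or the lists below, so higher calls in that comparison are relative to the scaling used. In Ift140 knockout cells under flow 0 were higher and 1 (Prc1) lower than in WT, where 7.73% and 7.52% of all genes were. Without the third library Prc1 was lost and Aspm was the 1 lower. The difference between the lists was not tested.

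**Figure D4:**
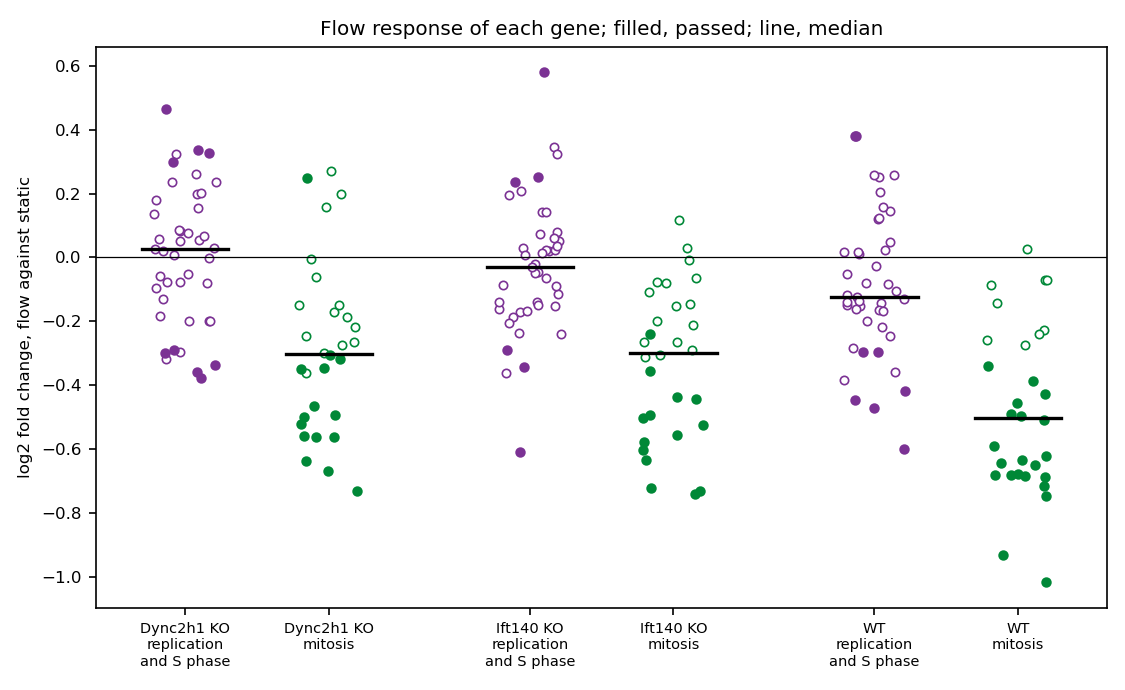
Log2 fold change of flow against static (y axis) for each of the 43 members (purple) and 30 mitosis genes (green) in Dync2h1 knockout, Ift140 knockout and WT cells, filled where the adjusted p was under 0.05, with the median as a line. Member medians lie at 0.03, -0.03 and -0.12, and mitosis medians at -0.30, -0.30 and -0.50.

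The other genes of the fork and of origins, 36 tested, moved in both directions between genotypes. In static Dync2h1 knockout cells 5 were higher and 5 lower than in WT, where 13.5% and 14.1% of all genes were. In static Ift140 knockout cells 4 were higher and 5 lower, where 8.97% and 9.08% of all genes were. Mtbp, which works with treslin in origin firing, was higher in both lines. Its change was 0.76 on the log2 scale (adjusted p = 8.14e-07) in Dync2h1 and 0.30 (adjusted p = 0.00592) in Ift140 knockout cells static, and 1.01 (adjusted p = 3.23e-08) and 0.56 (adjusted p = 5.02e-05) under flow. The last was 0.61 on the log2 scale (adjusted p = 2.24e-05) without the third Ift140 knockout flow library. Wdhd1, which couples the helicase to polymerase alpha, was lower in both static lines, with changes of -0.49 on the log2 scale (adjusted p = 0.000483) for Dync2h1 and -0.52 (adjusted p = 0.000579) for Ift140, as was Cdc7, the kinase that fires origins, in the Dync2h1 knockout line (-0.46, adjusted p = 0.000606). Recql4, a helicase of replication initiation, was higher in both static lines (log2 fold change 0.57, adjusted p = 0.000519 for Dync2h1 and 0.39, adjusted p = 0.013 for Ift140). Under flow 6 were higher and 3 lower in Dync2h1 knockout than in WT cells, and 3 and 1 in Ift140 knockout cells (3 and 2 without the third library). Of all genes 16.1% and 14% were so in Dync2h1 knockout cells, and 7.73% and 7.52% in Ift140 knockout cells (14.3% in either direction without the third library). Under flow against static 3 rose and 2 fell in Dync2h1 knockout cells, 1 and 3 in Ift140 knockout cells (2 and 3 without the third flow library), and 0 and 7 in WT cells. Of all genes 10.8% rose and 8.15% fell in Dync2h1 knockout cells, 9.21% and 8.27% in Ift140 knockout cells, and 10.2% and 10.3% in WT cells. The 7 in WT cells included Chtf18, part of an alternative clamp loader (log2 fold change -0.65, adjusted p = 0.000252). Its values in the knockouts were -0.26 on the log2 scale (adjusted p = 0.0872) for Dync2h1 and -0.27 (adjusted p = 0.0729) for Ift140, and the differences of response did not pass (adjusted p = 0.334 and 0.475).

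Among 12 other nucleotide supply genes Shmt1, which makes one-carbon units for thymidylate, rose under flow in all 3 genotypes (log2 fold change 0.42, adjusted p = 0.00123 in Dync2h1 knockout, 0.32, adjusted p = 0.00985 in Ift140 knockout and 0.36, adjusted p = 0.00383 in WT cells). It was also higher in both static knockouts than in WT (log2 fold change 0.59, adjusted p = 3.86e-05 for Dync2h1 and 0.26, adjusted p = 0.0319 for Ift140), while Dtymk, thymidylate kinase, was lower in both (-0.46, adjusted p = 0.00075 for Dync2h1 and -0.28, adjusted p = 0.0343 for Ift140). Of these 12 genes 2 were higher and 1 lower in static Dync2h1 knockout cells, 1 and 1 in static Ift140 knockout cells, 3 and 2 under flow in Dync2h1 knockout cells, and 1 and 2 under flow in Ift140 knockout cells (1 and 1 without the third library). In that order 27.6%, 18.1%, 30.1% and 15.3% of all genes passed in either direction (14.3% without the third library). Under flow against static 1 rose and 0 fell in each knockout, also without the third Ift140 knockout flow library, and 1 and 1 in WT cells, where Mthfd1 fell (log2 fold change -0.42, adjusted p = 0.0183). Of all genes 19% passed in Dync2h1 knockout, 17.5% in Ift140 knockout (16.6% without the third flow library) and 20.5% in WT cells.

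Of 28 genes of G1/S control and the S phase checkpoint, under flow 6 rose and 5 fell in Dync2h1 knockout cells, 7 and 7 in Ift140 knockout cells, and 5 and 6 in WT cells. That is 39.3%, 50% and 39.3% of the list, against 20.9%, 14% and 18.6% of the members and 19%, 17.5% and 20.5% of all genes. Without the third Ift140 knockout flow library 6 rose and 6 fell in that line. Cdkn1b, the CDK inhibitor p27, changed by -0.82 on the log2 scale (adjusted p = 2.95e-05), -0.81 (adjusted p = 4.13e-05) and -0.73 (adjusted p = 8.58e-05) in these genotypes. Rbl2, the RB family protein p130, changed by -0.71 on the log2 scale (adjusted p = 0.000176), -0.67 (adjusted p = 0.00037) and -0.77 (adjusted p = 8.28e-05). E2f6, a repressive E2F factor, rose in all 3 genotypes, by 0.52 on the log2 scale (adjusted p = 0.00216) in Dync2h1 knockout, 0.87 (adjusted p = 2.72e-05) in Ift140 knockout and 0.39 (adjusted p = 0.0116) in WT cells. So did Ccne1, cyclin E1, by 0.48 on the log2 scale (adjusted p = 0.00845) in Dync2h1 knockout, 0.78 (adjusted p = 0.000235) in Ift140 knockout and 0.68 (adjusted p = 0.000538) in WT cells. The flow calls of Shmt1, Cdkn1b, Rbl2, E2f6, Ccne1, Bub1b and Nusap1 in Ift140 knockout cells remained without the third flow library, at adjusted p between 5.14e-05 and 0.0203. Against WT in static cells 3 were higher and 1 lower in the Dync2h1 knockout line and 2 and 2 in the Ift140 knockout line. Of all genes 27.6% and 18.1% passed in these comparisons. E2f6 was higher in both lines (log2 fold change 0.39, adjusted p = 0.00855 for Dync2h1 and 0.66, adjusted p = 0.000337 for Ift140). So was Skp2, the F-box protein that targets p27 (0.29, adjusted p = 0.0293 for Dync2h1 and 0.39, adjusted p = 0.00914 for Ift140). Under flow 4 were higher and 4 lower in Dync2h1 knockout cells, and 2 and 3 in Ift140 knockout cells (3 and 3 without the third library). Of all genes 30.1% and 15.3% passed there (14.3% for Ift140 without the third library).

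By mean level WT static was the highest of the 6 groups for 22 of the 43 members, Dync2h1 knockout under flow for 9, and the Ift140 knockout flow group was the lowest for 11 (8 without its replicate 3 and with the scaling factors taken again). Of the members 10 passed in none of the 11 comparisons: Mcm4, Cdt1, Gins1, Gins3, Lig1, Rpa2, Rrm1, Rrm2, Dut and E2f2. WT static replicate 1 had the highest value of all 18 libraries for 16 members. Without it the members that passed in the static comparisons with WT numbered 14 in Dync2h1 knockout cells (1 higher, 13 lower), against 22.2% of all genes, and 11 in Ift140 knockout cells (2 higher, 9 lower), against 12.4%.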

How the data were processed

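RNA of 18 libraries was measured by sequencing, 3 in each of 6 groups set by the labels. The authors deposited 1 table per library of TPM values per gene (a transcript's share of the library, corrected for length), a unit read from the values, whose gene rows have the same sum in every library; the row named total was left out. FastQC 0.11.5, Bowtie2 2.1.0, RSEM 1.2.31 and the builds mm10 and GRCm38.p5 are named per the submitters' processing notes. TPM keeps no depth, so the depth per library is unknown and no counting interval is given.

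Each library was divided by a scaling factor, a trimmed mean of log ratios (30% of ratios and 5% of levels trimmed at each end), and printed levels are these scaled TPM. Genes at 1 TPM or more in at least 3 libraries (16718 of 49845) were tested on log2(TPM + 1) with limma 3.58.1 in R 4.3.3, with 6 group means, 12 residual degrees of freedom and a mean-variance trend. Two-sided p-values were adjusted by Benjamini-Hochberg over all genes tested, at 0.05, and the fit was tested on simulated data. A fold change on this scale understates the change of low genes. With 3 libraries against 3, an exact permutation test of a single gene cannot go below p = 0.1, so none is used.

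The 9 comparisons set flow against static within a genotype, knockout against WT within a condition, and knockout against WT in the 2 differences of flow response. The 2 comparisons between the knockout lines were added after the data had been seen. The members and gene lists were chosen with earlier results of these data known. Members to be given by library were, per comparison, up to 6 in each direction that passed, by smallest p, and the highest member by mean TPM in each role. Tyms and Lig1 are given besides, and picked members are also given in comparisons outside this rule. Of other lists, up to 4 that passed per comparison were named. Alternatives were other pseudocounts, filters, scalings and fits, a replicate block and each replicate left out.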

Additional observations from a re-analysis of the deposited data

How the results depend on the processing

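Counts of members that passed moved by over 1.5 times in the following cases. With no filter on low values the count was 4 for flow against static in WT cells (8 as reported), 7 for Ift140 knockout against WT under flow (11 as reported) and 7 for Dync2h1 against Ift140 knockout under flow (14 as reported), and the share of all genes that passed was 8.72%, 6.33% and 15% (20.5%, 15.3% and 33% as reported). When the fit held no other groups it was 1 for flow in Ift140 knockout cells (6 as reported), 1 for Ift140 knockout against WT under flow and 6 for Dync2h1 against Ift140 knockout under flow, with 4.47%, 4.45% and 20.1% of all genes. The last was 9 without the mean-variance trend, with 32.8% of all genes. With weights per library it was 17 for flow in WT cells and 14 for flow in Dync2h1 knockout cells (9 as reported), with 28.6% and 27.7% of all genes (20.5% and 19% as reported). With each replicate left out in turn, flow gave 2 to 8 in Dync2h1 knockout, 4 to 7 in Ift140 knockout and 3 to 6 in WT cells. Against WT the range was 14 to 19 static and 16 to 18 under flow for Dync2h1, and 11 to 16 static and 5 to 17 under flow for Ift140. Between the lines it was 6 to 8 static and 7 to 14 under flow, and the differences of flow response stayed at 0 to 0. Where a group is left with 2 libraries the pooled spread is assumed to hold for it. The rule for members given above picked 86 results. Of these 38 passed in all 17 settings run for each, 48 were lost in at least 1 and 0 reversed. The cause of these moves was not tested. Other member calls, such as those of Tyms and Gins2 in static cells, are not among the 86. Calls of genes in the other lists were not run through these settings, apart from leaving out the third Ift140 knockout flow library. Same-numbered libraries showed little shared deviation (1 of 21 pair correlations over 0.1, from -0.182 to 0.104). Whether they were prepared together is not in the labels and cannot be settled by these correlations, and the main fit does not pair them. With the replicate block the counts were 9, 6 and 8 for flow in Dync2h1 knockout, Ift140 knockout and WT cells, 18 and 15 for Dync2h1 and Ift140 knockout against WT static, 19 and 10 under flow, and 8 and 12 between the lines static and under flow.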
